A study of Mus musculus with 12 samples.

Results

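The expression of 10 cytokine genes of effector T cells was measured by RNA-seq in donor T cells from the liver in a mouse transplantation model of graft versus host disease. The genes were Ifng, Tnf, Il2, Csf2, Il10, Il21, Il4, Il13, Il3 and Lta, chosen by name, among 25078 genes counted. Lethally irradiated BALB/c mice had been given T cell-depleted bone marrow from WT C57BL/6 mice together with T cells from 1 of 3 C57BL/6 donors. The donors were WT mice, Stat3 fl/fl CD4-Cre mice (STAT3-/-) and Stat3 fl/fl PD-1-/- CD4-Cre mice (STAT3-/-PD-1-/-). On day 6 after transplantation, H-2Kb+TCRβ+ donor CD4+ and CD8+ T cells were sorted from the liver, and each library held cells combined from 3 recipients. There were 12 libraries, 2 for each of the 6 combinations of genotype and subset, with 21676125 to 24551477 counts per library. The CD4 promoter drives Cre at a thymic stage that CD4+ and CD8+ T cells share, so Stat3 was deleted in both subsets, whereas PD-1 was missing from every cell of the donors that lacked it. No group lacked PD-1 alone, so the effect of PD-1 loss was read only on the STAT3-/- background. The host, the bone marrow and the day of harvest were the same for all groups. Disease was not, since the paper reports lethal acute disease with WT and STAT3-/-PD-1-/- T cells and mild disease with STAT3-/- T cells. Genotype and the state of the liver therefore cannot be told apart.

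Cytokine genes are kept nearly silent in resting T cells and are switched on when the T cell receptor and costimulation activate NFAT, AP-1 and NF-κB. Lineage factors then limit which cytokines a cell can make, with T-bet and Eomes favoring interferon γ, GATA3 favoring IL-4 and IL-13, and Maf favoring IL-4, IL-10 and IL-21. STAT3 carries signals from the receptors of IL-6, IL-10, IL-21 and IL-23, and PD-1 dampens signaling from the T cell receptor. Most cytokine mRNAs are short-lived, because AU-rich elements in their 3′ ends are bound by decay factors such as tristetraprolin.

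Several of the 10 genes lie side by side in the mouse genome (mm10). Il4 (chr11:53612461-53618665) and Il13 (chr11:53631323-53634702) are 12.7 kb apart in the type 2 cytokine locus. Csf2 (chr11:54247270-54249899) and Il3 (chr11:54265085-54267279) are 15.2 kb apart on the same chromosome, 613 kb from Il13. Tnf (chr17:35199367-35202007) and Lta (chr17:35203165-35205351) are neighbors at 1.16 kb. Il2 (chr3:37120716-37125954) and Il21 (chr3:37222759-37232636) lie 96.8 kb apart. Ifng (chr10:118441046-118445894) and Il10 (chr1:131019845-131024970) have no other member on their chromosomes. Lta was the only member that overlapped another annotated gene, the microRNA gene Mir6974 on the same strand.

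The promoters of 4 members are shown, namely Ifng, which had the highest level of all members, and Il2, Csf2 and Il21, which differed between genotypes in the tests below. Each runs from 250 bases before to 50 bases after the annotated start (RefSeq, GRCm38.p6), read 5′ to 3′ on the strand of the gene. Capitals mark TATAAA (the TATA box), GGAAA (the core that NFAT proteins bind) and TTCNNNGAA (the palindrome of STAT proteins) on either strand, so that GGAAA on the opposite strand reads TTTCC.
Ifng (chr10:118440796-118441095, plus strand): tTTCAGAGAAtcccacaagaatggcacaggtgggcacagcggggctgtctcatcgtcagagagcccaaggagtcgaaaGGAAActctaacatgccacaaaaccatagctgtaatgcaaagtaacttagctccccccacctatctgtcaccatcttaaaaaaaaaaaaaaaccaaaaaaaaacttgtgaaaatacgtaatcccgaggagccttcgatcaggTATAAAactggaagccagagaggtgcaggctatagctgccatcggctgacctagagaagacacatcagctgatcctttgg
Il2 (chr3:37125905-37126204, minus strand): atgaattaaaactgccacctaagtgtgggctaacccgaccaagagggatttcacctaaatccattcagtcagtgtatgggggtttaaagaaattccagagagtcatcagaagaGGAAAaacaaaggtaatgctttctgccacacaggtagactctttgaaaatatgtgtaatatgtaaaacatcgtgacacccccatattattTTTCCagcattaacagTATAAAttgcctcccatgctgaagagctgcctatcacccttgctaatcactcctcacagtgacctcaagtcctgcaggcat
Csf2 (chr11:54249850-54250149, minus strand): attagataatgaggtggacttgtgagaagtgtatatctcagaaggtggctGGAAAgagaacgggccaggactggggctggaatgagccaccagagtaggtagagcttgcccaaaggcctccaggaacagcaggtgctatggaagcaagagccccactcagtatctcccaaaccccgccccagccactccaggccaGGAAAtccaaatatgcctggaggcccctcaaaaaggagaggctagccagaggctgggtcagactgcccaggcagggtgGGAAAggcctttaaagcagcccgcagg
Il21 (chr3:37232587-37232886, minus strand): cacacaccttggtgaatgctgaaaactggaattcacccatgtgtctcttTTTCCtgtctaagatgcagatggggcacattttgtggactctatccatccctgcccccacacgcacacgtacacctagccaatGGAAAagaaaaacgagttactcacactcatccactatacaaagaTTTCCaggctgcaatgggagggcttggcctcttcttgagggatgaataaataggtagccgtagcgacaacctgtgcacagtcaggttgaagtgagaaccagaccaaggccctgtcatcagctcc

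Promoter windows were found for 9 of the 10 members. That of Il4 (chr11:53617289-53617588) surrounds a start inside the gene, whose 5′ end is at chr11:53618665. Its motifs therefore do not describe the promoter at that end. GGAAA was present in 9 of these 9, as compared with 61.3% of 27025 promoters of the same length. TATAAA was present in 5 of 9, including Ifng and Il2 but neither Csf2 nor Il21, and in 14.2% of all promoters. TTCNNNGAA was present in 3 of 9 (Ifng, Il4 and Lta) and in 8.47% of all promoters, and in Il4 and at a site in Lta its letters overlapped those of GGAAA. The AP-1 motif TGANTCA was in none of the 9 windows and in 7.93% of all promoters. These counts describe letters in a short window and not bound sites.

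The 3′ ends shared a feature as well. Each of the 10 members carried at least 1 ATTTA pentamer, the unit of AU-rich elements, in its longest annotated 3′ untranslated region, as did 66.3% of 20644 genes. The longer nonamer TTATTTATT was present in 6 of 10 members and in 7.8% of all genes. Csf2 had 9 pentamers at 28.4 per kb, a density that 0.0533% of genes reached, and the median gene had 1.28 per kb. Il2 had 12 per kb, Tnf 10.5, Ifng 9.51 and Il21 3.49. The densest stretches of at most 30 bases are shown for Csf2, Tnf, Il2 and Ifng, since they hold from 3 to 5 pentamers in 1 window, with ATTTA in capitals (GRCm38, 5′ to 3′ on the strand of the gene).
Csf2 (chr11:54247329-54247349, minus strand): ATTTATTTATTTATTTATTTA
Tnf (chr17:35199679-35199705, minus strand): ATTTAttATTTATTTAttATTTATTTA
Il2 (chr3:37121040-37121067, minus strand): ATTTATTTAaatATTTAactttaATTTA
Ifng (chr10:118445335-118445359, plus strand): ATTTAttaatATTTAaaactATTTA

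The labels of the libraries were checked first. Stat3 was at 369 and 467 CPM (the count scaled to the library's size by TMM) in the WT CD4+ libraries, 140 and 164 CPM in the STAT3-/- libraries, and 157 and 219 CPM in the STAT3-/-PD-1-/- libraries. Pdcd1, which encodes PD-1, was at 247 and 235 CPM in WT CD4+ T cells, 261 and 323 CPM in STAT3-/- cells, and 55.1 and 26.0 CPM in STAT3-/-PD-1-/- cells. The CD8+ libraries had the same order, with Stat3 at 384 to 397 CPM in WT, 136 to 149 in STAT3-/- and 154 to 235 in STAT3-/-PD-1-/- cells, and Pdcd1 at 65.6 and 93.6 CPM where PD-1 was deleted and 307 to 454 CPM elsewhere. These counts are per gene, so reads from any undeleted exons of both genes would be included, and they were not counted apart. Cd4 was at 1240 to 1890 CPM in the CD4+ libraries and at most 2.73 CPM in the CD8+ libraries. The sum of Cd8a and Cd8b1 was 1150 to 2390 CPM in the CD8+ and 10.8 to 25 CPM in the CD4+ libraries. B cell, hepatocyte and NKT cell markers summed to less than 1 CPM in every library.

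Ifng led the 10 genes in every library. On a scale of CPM per kb of exon, which allows genes to be compared, Ifng averaged 236 over the 12 libraries, Il10 42.1, Csf2 13.5, Tnf 11.97, Il21 11.7, Lta 2.79, Il2 1.56, Il13 0.936, Il3 0.702 and Il4 0.405. Ifng made up 63.7% to 69.6% of the summed level of the 10 genes per kb in CD4+ T cells and 70.7% to 89% in CD8+ T cells. In WT CD4+ T cells, the level per kb was 298 ± 144 (SD, n = 2) for Ifng, 53.2 ± 42.0 for Il10, 23.2 ± 9.72 for Csf2, 23.03 ± 1.26 for Tnf, 21.9 ± 1.93 for Il21, 5.45 ± 0.241 for Il2, 4.78 ± 0.208 for Lta, 2.702 ± 1.19 for Il13, 2.54 ± 1.26 for Il3 and 1.27 ± 0.120 for Il4. Within this order Csf2, Tnf and Il21 lay within 1 SD of each other, as did Il13 and Il3, whereas the order of Ifng, Il10 and the next 3 rests on 2 libraries that differed widely. In WT CD8+ T cells the level per kb was 254 ± 57.5 for Ifng, 16.9 ± 10.9 for Il10, 7.53 ± 1.79 for Tnf, 5.41 ± 0.814 for Csf2, 1.63 ± 0.391 for Il21 and 1.39 ± 0.213 for Lta, with the other 4 below 0.3. The bulk measurement cannot tell fewer cells that make a cytokine from less of its RNA in each cell.

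**Figure D1:**
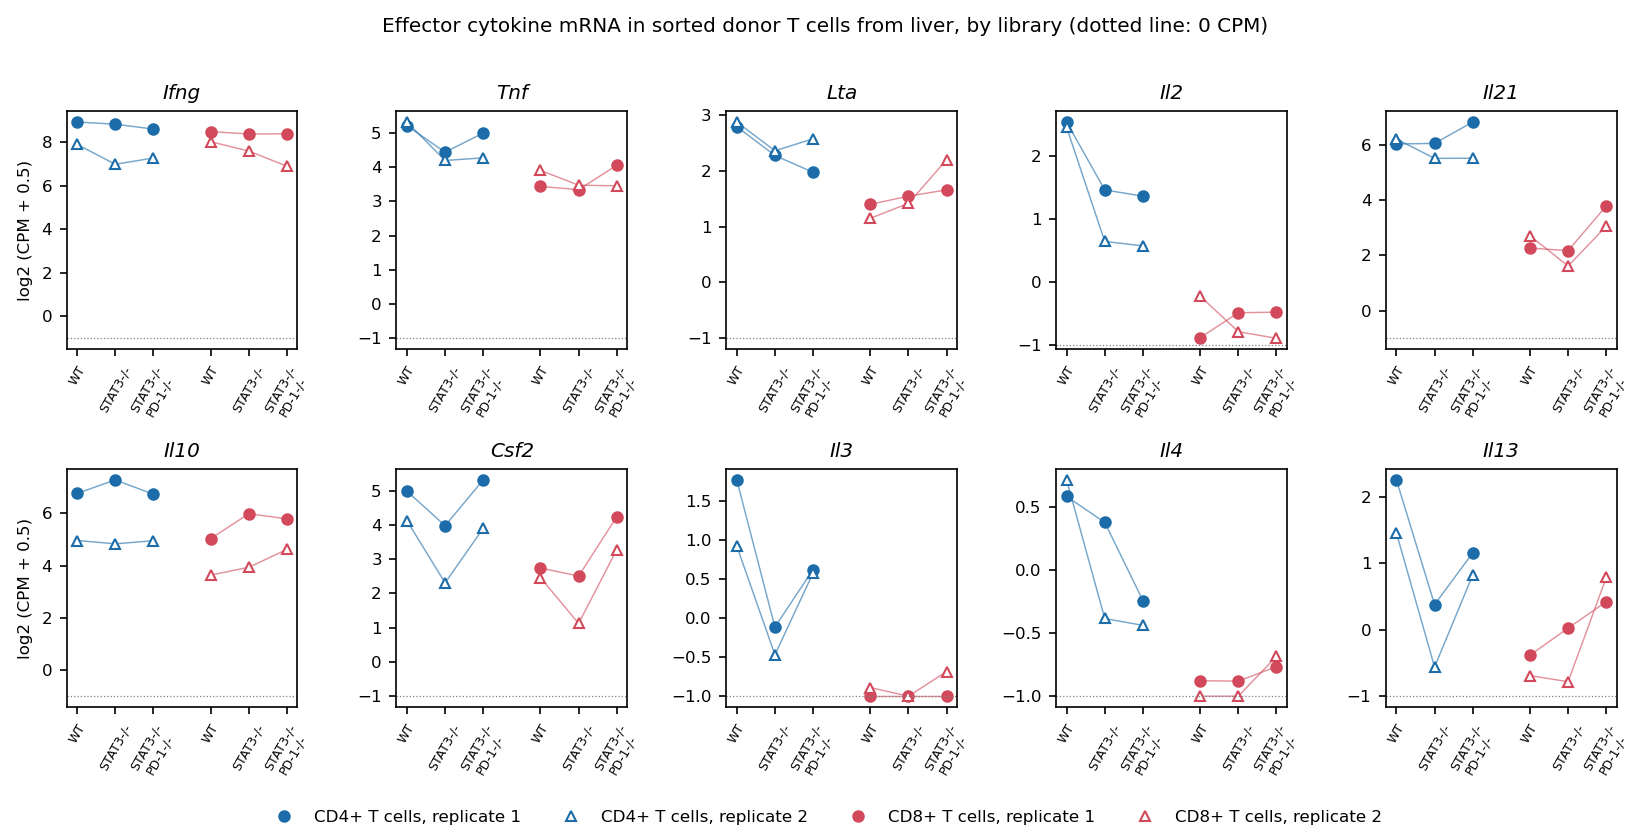
Level of each of the 10 cytokine genes in every library, as log2(CPM + 0.5) on an axis of its own in each panel, with CD4+ T cells in blue and CD8+ T cells in red. Circles are replicate 1 and open triangles replicate 2, lines join libraries of the same number, and the dotted line marks 0 CPM. Replicate 1 lies above replicate 2 in all 6 groups for Ifng, Csf2 and Il10, and the CD8+ libraries lie below the CD4+ libraries of the same genotype for Il2 and Il21.

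The effect of STAT3 loss, alone or with PD-1 loss, was compared within each subset with the quasi-likelihood test of edgeR, and the p-values were adjusted over all genes by the method of Benjamini and Hochberg. A gene was called at an adjusted p under 0.05. Deviations of CD4+ libraries with the same number correlated at 0.725 (WT and STAT3-/-), 0.352 (WT and STAT3-/-PD-1-/-) and 0.213 (STAT3-/- and STAT3-/-PD-1-/-). A second fit with the number as a block was therefore made, and its values are given where they change a call. The last 2 correlations are weak, so the pairing that the block assumes is not established. Between STAT3-/- and WT CD4+ T cells none of the 10 members was called in the fit without the block, where 0.334% of 11959 genes were called, and 4 members were lower with the block (Il2, Csf2, Il13 and Il3), where 2.53% of genes were called. Without the block, 4 members had an unadjusted p under 0.05, as compared with 10.5% of genes. DESeq2 called 3 members (Il13, Il3 and Tnf) and 271 genes in all, more than the edgeR fit without the block. Both STAT3-/- libraries lay below both WT libraries for 7 of 10 members, as compared with 19.4% of all genes. Both STAT3-/-PD-1-/- libraries lay below both WT libraries for 6 of 10, as compared with 29.5% of all genes. STAT3-/-PD-1-/- CD4+ T cells had 1 member called lower than WT (Il2), with 12.9% of genes called, and 2 with the block (Il2 and Il4), with 26% of genes called. The median log2 difference of the 10 members was -0.98 for STAT3-/- against WT and -0.57 for STAT3-/-PD-1-/- against WT, and that of all genes was 0.01 and -0.01. These 2 comparisons share the WT libraries.

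Among the T cell growth and helper cytokines, Il2 fell and Il21 did not pass the test. Il2, which encodes the growth factor that activated T cells make for themselves and for regulatory T cells, was at 5.32 and 5.00 CPM in the WT CD4+ libraries, 2.26 and 1.07 CPM in the STAT3-/- libraries, and 2.08 and 0.993 CPM in the STAT3-/-PD-1-/- libraries. Both WT libraries were above the other 4, and the 2 mutant genotypes overlapped. The log2 difference of STAT3-/-PD-1-/- from WT was -1.73 (SE 0.45, adjusted p = 0.0452, edgeR), and that of STAT3-/- from WT was -1.63 (SE 0.45, adjusted p = 0.238). With the block the adjusted p was 0.00637 and 0.0417, at log2 differences of -1.80 and -1.70. The call against WT was lost without any 1 of the 4 libraries compared, with log2 differences of -1.30 to -2.34 and an adjusted p of 0.106 without WT replicate 1, 0.104 without WT replicate 2, 0.245 without STAT3-/-PD-1-/- replicate 1 and 0.0899 without STAT3-/-PD-1-/- replicate 2. STAT3-/-PD-1-/- and STAT3-/- cells differed in Il2 by -0.10 (SE 0.47, adjusted p = 0.908). Il21, the cytokine of follicular helper T cells that signals through STAT3, was at 65.2 and 73.9 CPM in WT, 66.2 and 45.3 CPM in STAT3-/-, and 114 and 45.5 CPM in STAT3-/-PD-1-/- CD4+ T cells. All 3 groups overlapped, and the log2 differences from WT were -0.32 (SE 0.39, adjusted p = 0.856) and 0.21 (SE 0.39, adjusted p = 0.766).

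The neighbors Csf2 and Il3 and the type 2 cytokine Il13 shared a pattern in CD4+ T cells, with low values in STAT3-/- cells. Csf2 encodes GM-CSF, which activates macrophages and neutrophils. It was at 31.1 and 16.9 CPM in WT, 15.2 and 4.45 CPM in STAT3-/-, and 39.2 and 14.4 CPM in STAT3-/-PD-1-/- CD4+ T cells. Il3, a growth factor of mast cells and basophils, was at 2.91 and 1.40 CPM in WT, 0.424 and 0.222 CPM in STAT3-/-, and 1.04 and 0.993 CPM in STAT3-/-PD-1-/- cells. Il13 was at 4.27 and 2.24 CPM in WT, 0.801 and 0.178 CPM in STAT3-/-, and 1.73 and 1.27 CPM in STAT3-/-PD-1-/- cells. For Il3 and Il13 the 3 groups did not overlap, with WT highest and STAT3-/- lowest, although the STAT3-/- values of Il3 rest on 9 and 5 counts and those of Il13 on 17 and 4 counts. For Csf2 the STAT3-/-PD-1-/- libraries overlapped both the WT and the STAT3-/- libraries.

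Against WT, STAT3-/- CD4+ T cells had log2 differences of -2.73 for Il13 (SE 0.62, adjusted p = 0.168), -2.71 for Il3 (SE 0.53, adjusted p = 0.119) and -1.29 for Csf2 (SE 0.64, adjusted p = 0.557). With the block these were -2.77 (SE 0.41, adjusted p = 0.0192), -2.69 (SE 0.43, adjusted p = 0.0246) and -1.45 (SE 0.22, adjusted p = 0.0221). STAT3-/-PD-1-/- cells were compared with STAT3-/- cells to read the loss of PD-1. None of the 10 members was called without the block, with 11.1% of genes called, while 2 members had an unadjusted p under 0.05, as did 29.4% of all genes, and DESeq2 called none. With the block, where 26% of genes were called, 3 members were higher. They were Csf2 (1.51, SE 0.22, adjusted p = 0.00394), Il13 (1.72, SE 0.44, adjusted p = 0.0261) and Il3 (1.70, SE 0.47, adjusted p = 0.0333), whose log2 differences without the block were 1.47 (adjusted p = 0.174), 1.64 (adjusted p = 0.138) and 1.66 (adjusted p = 0.0939). Without STAT3-/- replicate 1 and without a block, Csf2 (2.59, adjusted p = 0.0242) and Il13 (3.04, adjusted p = 0.0336) were called too, and without any other of the 4 libraries compared none of the 10 members was called (Csf2 0.59 to 2.01, Il13 0.92 to 1.84 and Il3 1.28 to 1.68). Against WT, the STAT3-/-PD-1-/- cells had log2 differences of 0.18 for Csf2 (SE 0.62, adjusted p = 0.879), -1.09 for Il13 (SE 0.54, adjusted p = 0.236) and -1.05 for Il3 (SE 0.45, adjusted p = 0.176). Across the 6 CD4+ libraries the log2 levels of Il13 and Il3 had a Pearson r of 0.979, a description over libraries that share genotype and replicate number.

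Il4, the cytokine that defines type 2 helper T cells, was low throughout the CD4+ libraries. Its level was 1.00 and 1.14 CPM in WT, 0.801 and 0.267 CPM in STAT3-/-, and 0.346 and 0.238 CPM in STAT3-/-PD-1-/- cells, which is 27 counts at most. Both WT libraries were above the other 4. The log2 difference of STAT3-/-PD-1-/- from WT was -1.84 (SE 0.58, adjusted p = 0.0775), and -1.87 (SE 0.54, adjusted p = 0.0368) with the block. Against STAT3-/- cells it was -0.83 (SE 0.62, adjusted p = 0.405), which is opposite in sign to that of its neighbor Il13.

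Tnf and Lta, neighboring genes of inflammatory cytokines that share receptors, were below WT in every mutant CD4+ library without passing the edgeR test. Tnf was at 36.6 and 39.6 CPM in WT, 21.2 and 17.9 CPM in STAT3-/-, and 31.5 and 18.9 CPM in STAT3-/-PD-1-/- cells. Its log2 difference from WT was -0.96 in STAT3-/- cells (SE 0.25, adjusted p = 0.222, 0.054 with the block and 0.0302 with DESeq2) and -0.58 in STAT3-/-PD-1-/- cells (SE 0.25, adjusted p = 0.172). Lta, which encodes lymphotoxin α, was at 6.41 and 6.82 CPM in WT, 4.33 and 4.62 CPM in STAT3-/-, and 3.42 and 5.44 CPM in STAT3-/-PD-1-/- cells. Its log2 difference from WT was -0.56 (SE 0.29, adjusted p = 0.577) and -0.55 (SE 0.28, adjusted p = 0.249).

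Ifng and Il10 varied more within groups than between them. Ifng, the main macrophage-activating cytokine of type 1 helper and cytotoxic T cells, was at 483 and 237 CPM in WT, 450 and 126 CPM in STAT3-/-, and 386 and 154 CPM in STAT3-/-PD-1-/- CD4+ T cells. Il10, an anti-inflammatory cytokine, was at 108 and 30.7 CPM in WT, 155 and 28.1 CPM in STAT3-/-, and 106 and 30.5 CPM in STAT3-/-PD-1-/- cells. In each group replicate 1 was the higher. The log2 differences of Ifng from WT were -0.32 (SE 0.63, adjusted p = 0.923) in STAT3-/- and -0.40 (SE 0.63, adjusted p = 0.728) in STAT3-/-PD-1-/- cells, and Il10 differed by 0.40 (SE 0.88, adjusted p = 0.933) and by -0.003 (SE 0.88, adjusted p = 0.999).

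**Figure D2:**
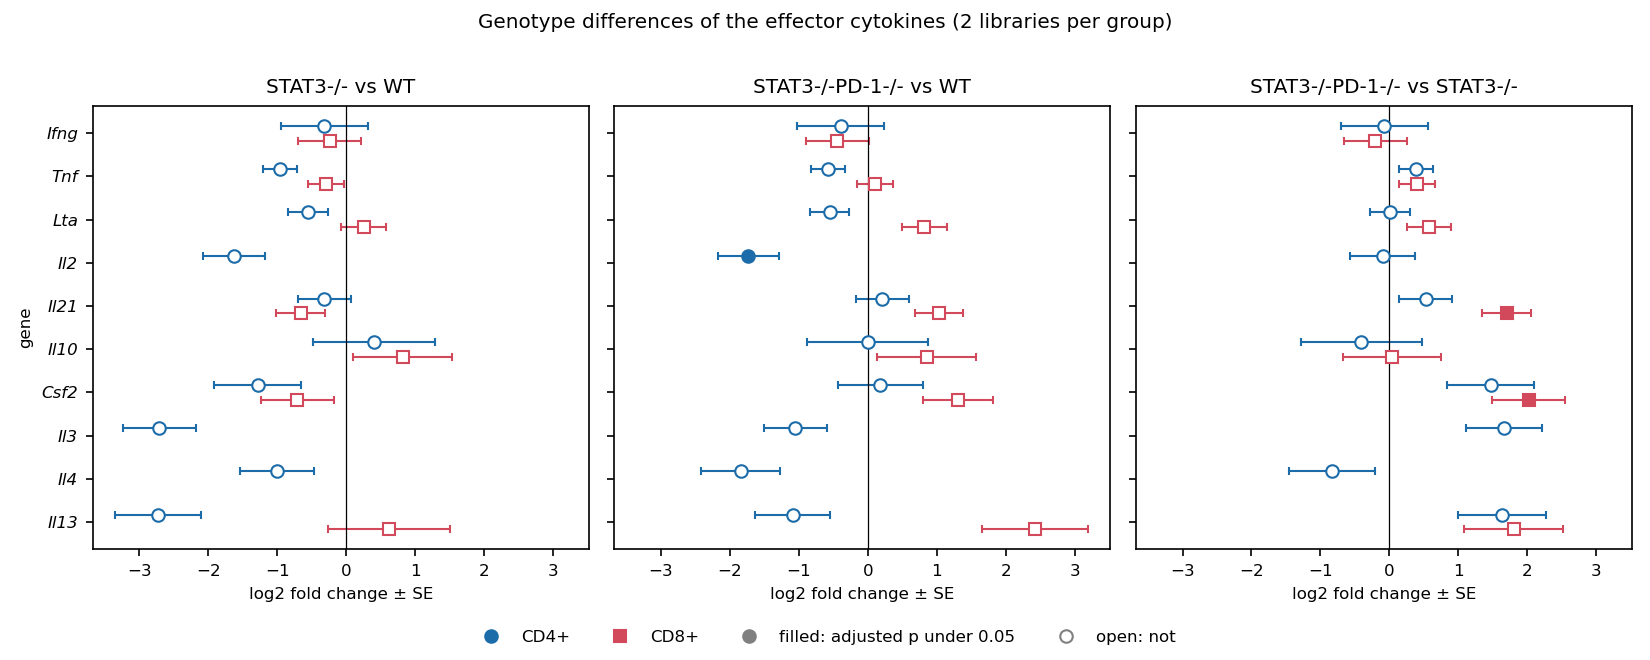
Log2 difference of each member between genotypes in CD4+ and CD8+ T cells (points, with SE as bars), from the fits without a block. Filled points have an adjusted p under 0.05, and Il2, Il3 and Il4 were not tested in CD8+ T cells. The filled points are Il2 (-1.73) for the CD4+ comparison of STAT3-/-PD-1-/- with WT and Csf2 (2.02) and Il21 (1.70) for the CD8+ comparison of STAT3-/-PD-1-/- with STAT3-/-.

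In CD8+ T cells, 7 of the 10 members had enough counts to be tested. Il2 (1 to 9 counts per library), Il4 (0 to 3 counts) and Il3 (0 to 3 counts) did not. Differences between genotypes at these counts were not detectable at this depth. No member was called between STAT3-/- and WT CD8+ T cells, where 0.0583% of 12002 genes were called. At an unadjusted p under 0.05 there were 0 members and 11% of genes, and DESeq2 called no member. STAT3-/-PD-1-/- CD8+ T cells also had 0 of 7 members called against WT, with 17.2% of genes called, while 4 had an unadjusted p under 0.05, as did 34% of genes. DESeq2 called 2 members (Csf2 and Il21), with the number of all genes called within 1.5 times that of edgeR. The replicate number pairs the CD8+ libraries less clearly, with correlations of deviations of 0.733, 0.184 and 0.046 between groups. With the number as a block, 2 members were higher than in WT (Csf2 and Il10), with 24.7% of genes called. Against STAT3-/- cells the STAT3-/-PD-1-/- CD8+ T cells had 2 of 7 members higher, Csf2 and Il21, and 16.8% of genes called in either direction (8.76% higher). Both STAT3-/-PD-1-/- libraries were above both WT libraries for 4 of 7 members and above both STAT3-/- libraries for 4 of 7, as compared with 30% and 31.6% of genes. The median log2 difference of the 7 members was 0.85 against WT and 0.57 against STAT3-/- cells, comparisons that share the STAT3-/-PD-1-/- libraries, and that of all genes was -0.001 and -0.003.

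Csf2 was at 6.18 and 4.99 CPM in WT, 5.18 and 1.68 CPM in STAT3-/-, and 18.3 and 9.18 CPM in STAT3-/-PD-1-/- CD8+ T cells. Both STAT3-/-PD-1-/- libraries were above the other 4. Their log2 difference was 2.02 from STAT3-/- cells (SE 0.53, adjusted p = 0.0411) and 1.31 from WT cells (SE 0.51, adjusted p = 0.118). With the replicate number as a block, the difference from WT was 1.22 (SE 0.30, adjusted p = 0.0284). Il21 was at 4.31 and 6.07 CPM in WT, 4.01 and 2.58 CPM in STAT3-/-, and 13.4 and 7.84 CPM in STAT3-/-PD-1-/- CD8+ T cells, again with both STAT3-/-PD-1-/- libraries above the other 4. Its log2 difference was 1.70 from STAT3-/- cells (SE 0.36, adjusted p = 0.0232) and 1.03 from WT cells (SE 0.35, adjusted p = 0.0814). Without STAT3-/- replicate 1 both calls against STAT3-/- held, at 3.03 (adjusted p = 0.00963) for Csf2 and 2.04 (adjusted p = 0.0241) for Il21. They were lost without STAT3-/- replicate 2 (1.42 with adjusted p = 0.103, and 1.41 with adjusted p = 0.0986), without STAT3-/-PD-1-/- replicate 1 (1.42 with adjusted p = 0.18, and 1.25 with adjusted p = 0.0912) and without STAT3-/-PD-1-/- replicate 2 (2.42 with adjusted p = 0.114, and 2.02 with adjusted p = 0.0771). The corresponding difference between STAT3-/- and WT was -0.71 for Csf2 (SE 0.53, adjusted p = 0.686) and -0.66 for Il21 (SE 0.36, adjusted p = 0.574).

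Il13 was at 0.267 and 0.120 CPM in WT, 0.518 and 0.0818 CPM in STAT3-/-, and 0.840 and 1.22 CPM in STAT3-/-PD-1-/- CD8+ T cells, from 2 to 30 counts. Both STAT3-/-PD-1-/- libraries were above the other 4, with a log2 difference from WT of 2.42 (SE 0.77, adjusted p = 0.0712). Il13 was called against WT without the filter on low counts and with only the libraries compared in the fit, but not with DESeq2. Lta was at 2.13 and 1.72 CPM in WT, 2.42 and 2.17 CPM in STAT3-/-, and 2.65 and 4.08 CPM in STAT3-/-PD-1-/- cells, with a log2 difference of 0.82 from WT (SE 0.32, adjusted p = 0.121). Tnf was at 10.4 and 14.5 CPM in WT, 9.67 and 10.6 CPM in STAT3-/-, and 16.2 and 10.5 CPM in STAT3-/-PD-1-/- cells, where the groups overlapped. Ifng was at 357 and 258 CPM in WT, 330 and 192 CPM in STAT3-/-, and 332 and 118 CPM in STAT3-/-PD-1-/- cells, with log2 differences from WT of -0.24 (SE 0.46, adjusted p = 0.903) and -0.44 (SE 0.46, adjusted p = 0.543). Il10 was at 32.2 and 11.9 CPM in WT, 63.0 and 14.8 CPM in STAT3-/-, and 54.9 and 24.1 CPM in STAT3-/-PD-1-/- cells, with log2 differences of 0.82 (SE 0.72, adjusted p = 0.742) and 0.85 (SE 0.72, adjusted p = 0.455). With the replicate number as a block, the difference of STAT3-/-PD-1-/- from WT was 0.91 for Il10 (SE 0.22, adjusted p = 0.027).

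Marker genes of other cells and of T cells changed in both directions between the genotypes. Kit, a receptor of mast cells that some T cells also express, was at 0.845 and 1.36 CPM in WT, 3.15 and 1.64 CPM in STAT3-/-, and 6.45 and 8.37 CPM in STAT3-/-PD-1-/- CD8+ T cells, a log2 difference from WT of 2.75 (adjusted p = 0.00855). Kit was the most abundant of 5 mast cell and basophil markers, whose sum in those libraries was 0.934 and 1.52, 3.28 and 2.33, and 6.94 and 8.82 CPM, and the defining markers Cpa3, Fcer1a, Ms4a2 and Mcpt8 were each at most 0.408 CPM in any library, with Ms4a2 at 0 in 9 of 12. The highest of these values were those of Mcpt8, a basophil protease, which was at 0.0890 and 0.0399 CPM in WT, 0 and 0.245 CPM in STAT3-/-, and 0.398 and 0.408 CPM in STAT3-/-PD-1-/- CD8+ T cells, from 10 counts at most, so that both STAT3-/-PD-1-/- libraries were above the other 4. The ILC2 list, led by Il1rl1, summed to 318 to 378 CPM over the CD8+ libraries. It summed to 653 and 573 CPM in WT, 538 and 438 CPM in STAT3-/-, and 334 and 330 CPM in STAT3-/-PD-1-/- CD4+ T cells, and effector and regulatory T cells also express its 3 genes. Foxp3, the factor that defines regulatory T cells, was at 20.96 and 30.7 CPM in WT, 16.3 and 25.1 CPM in STAT3-/-, and 3.38 and 3.42 CPM in STAT3-/-PD-1-/- CD4+ T cells (log2 difference from WT -2.90, adjusted p = 0.00395). Among the CD8+ libraries Foxp3 was at 23.8 and 13.7, 18.3 and 28.8, and 7.29 and 8.94 CPM in the same order. The 3 regulatory T cell markers summed to 305 to 397 CPM in the CD4+ and 293 to 459 CPM in the CD8+ libraries, most of it from Il2ra, which activated T cells express too. Against WT, STAT3-/-PD-1-/- cells had 1 of the 3 log2 differences above 0 in CD4+ and 2 of the 3 in CD8+ T cells. Among the markers of the subsets, Cd4 was lower in the STAT3-/-PD-1-/- than in the WT CD4+ libraries (log2 difference -0.52, adjusted p = 0.0375), and Cd8a fell in STAT3-/-PD-1-/- CD8+ T cells (log2 difference from WT -1.09, adjusted p = 0.00414). Against STAT3-/- CD8+ T cells, the comparison in which Csf2 and Il21 were called, Cd8a (-0.89, adjusted p = 0.007) and Foxp3 (-1.52, adjusted p = 0.0241) were lower and Kit was higher (1.65, adjusted p = 0.0297). Il2ra, of the same list as Foxp3, was higher in that comparison (0.71, adjusted p = 0.0143). The median of the 3 regulatory T cell markers there was -0.23. The T cell receptor complex genes Cd3d (-0.67, adjusted p = 0.0169) and Cd247 (-0.64, adjusted p = 0.0107) were lower than in WT in STAT3-/-PD-1-/- CD8+ libraries. NK cell markers summed to 10.2 to 18.7 CPM in the CD4+ and 11.2 to 56.3 CPM in the CD8+ libraries, nearly all from Klrb1c, which in the STAT3-/-PD-1-/- CD8+ libraries was lower than in WT (-1.62, adjusted p = 0.028), while Ncr1 was at most 0.424 CPM in any library. Macrophage and monocyte markers summed to 6.88 to 34.9 CPM, led by Cd68. In the STAT3-/-PD-1-/- CD8+ libraries Cd68 was lower than in WT (-0.71, adjusted p = 0.0154) and than in STAT3-/- cells (-0.63, adjusted p = 0.0232). The call of Cd4 and both calls of Cd68 were lost without any 1 of the 4 libraries compared. Against STAT3-/- CD8+ T cells, the calls of Kit and Foxp3 each held in 1 of the 4 fits without a library, and that of Cd8a in 3. Endothelial markers, led by Pecam1, summed to 110 to 198 CPM. The part of these cells in the cytokine differences was not tested.

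Whether a genotype effect differed between subsets was tested as the difference of the differences over all 12 libraries. No member was called for STAT3-/- against WT, where 0% of 12334 genes were called and 1 member had an unadjusted p under 0.05 (1.85% of genes), or for STAT3-/-PD-1-/- against WT, where 0.00811% of genes were called and 3 members had an unadjusted p under 0.05 (4.43% of genes). DESeq2 called no member in either. With the pool of recipients as a block, where 0.681% of genes were called, the effect of STAT3-/-PD-1-/- on Il13 was higher in CD8+ than in CD4+ T cells by 3.52 on the log2 scale (SE 0.52, adjusted p = 0.0267, and 0.482 without the block). The same fit gave 1.39 for Lta (adjusted p = 0.0571), 1.16 for Csf2 (adjusted p = 0.0725) and 0.92 for Il21 (adjusted p = 0.0983).

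The same liver tissue gave the CD4+ and the CD8+ T cells, so the subsets were compared within each genotype. In WT cells, 7 of 10 members were lower in CD8+ than in CD4+ T cells (Il2, Il21, Il4, Il13, Il3, Tnf and Lta), where 10.5% of genes were called (5.59% lower). In STAT3-/- cells 4 were lower (Il2, Il21, Il4 and Il3), with 9.62% of genes called, and in STAT3-/-PD-1-/- cells 3 (Il2, Il21 and Il3), with 4.14% of genes called. With the pool of recipients as a block the numbers were 9, 8 and 6, with 24.3%, 24.9% and 14.4% of genes called, and the block added Csf2 and Il10 in all 3 genotypes. The CD8+ libraries lay below the CD4+ libraries for 8, 6 and 6 members, as compared with 23%, 22.7% and 21.9% of genes. The median log2 difference of the members was -2.92, -1.38 and -0.94 for the 3 genotypes, beside 0.002, -0.008 and 0.01 for all genes.

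Il21 passed the test in all 3 genotypes, at -3.74 in WT (SE 0.46, adjusted p = 0.000694), -4.08 in STAT3-/- (SE 0.47, adjusted p = 0.000652) and -2.91 in STAT3-/-PD-1-/- cells (SE 0.43, adjusted p = 0.00465), each on the log2 scale. Il2 was lower in CD8+ T cells by log2 differences of -4.60 (SE 0.73, adjusted p = 0.00315), -3.45 (SE 0.80, adjusted p = 0.0228) and -3.52 (SE 0.82, adjusted p = 0.0403), against CD8+ libraries with at most 9 counts. Il4 had 1 count in WT CD8+ libraries against 49 in CD4+ libraries, a ratio of 0.0196 with a 95% counting interval of 0.000486 to 0.114. In STAT3-/- cells that ratio was 0.0399 (0.000969 to 0.246), and in STAT3-/-PD-1-/- cells Il4 did not pass the test (log2 difference -1.41, SE 0.81, adjusted p = 0.495). Il3 had 1 count against 97 in WT cells, a ratio of 0.0099 (0.000248 to 0.0565), and 3 against 49 in STAT3-/-PD-1-/- cells, a ratio of 0.0627 (0.0125 to 0.194). In STAT3-/- cells Il3 had 0 counts in CD8+ and 14 in CD4+ libraries, so it was at least 5.08-fold lower in CD8+ T cells, on a floor of 3 counts over the group.

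Il13 was lower in WT CD8+ T cells by a log2 difference of -4.06 (SE 0.79, adjusted p = 0.00889), and the difference was -0.70 (SE 0.85, adjusted p = 0.726) in STAT3-/- and -0.53 (SE 0.65, adjusted p = 0.826) in STAT3-/-PD-1-/- cells. Tnf differed by -1.61 (SE 0.28, adjusted p = 0.00515), -0.94 (SE 0.28, adjusted p = 0.0645) and -0.92 (SE 0.28, adjusted p = 0.113) in WT, STAT3-/- and STAT3-/-PD-1-/- cells, and the latter 2 passed the test with the pool as a block (adjusted p = 0.00204 and 0.00342). Csf2 differed by -2.10 (SE 0.70, adjusted p = 0.0946), -1.52 (SE 0.72, adjusted p = 0.253) and -0.96 (SE 0.67, adjusted p = 0.604), which became adjusted p = 0.000109, 0.00121 and 0.00752 with the pool as a block. Lta differed by -1.78 in WT cells (SE 0.29, adjusted p = 0.00392), by -0.96 in STAT3-/- cells (SE 0.29, adjusted p = 0.0693, and 0.00656 with the block) and by -0.40 in STAT3-/-PD-1-/- cells (SE 0.28, adjusted p = 0.626). Il10 differed by -1.66 (SE 1.00, adjusted p = 0.391), -1.24 (SE 0.98, adjusted p = 0.539) and -0.79 (SE 0.97, adjusted p = 0.827), and with the block by -1.57, -1.13 and -0.66 (adjusted p = 0.000384, 0.00195 and 0.0311). For Ifng the log2 difference was -0.23 (SE 0.67, adjusted p = 0.904) in WT, -0.14 (SE 0.67, adjusted p = 0.946) in STAT3-/- and -0.26 (SE 0.67, adjusted p = 0.938) in STAT3-/-PD-1-/- cells, and it passed in no fit. In WT cells the calls of Il2, Il21, Il3, Il4 and Lta held without each library in turn, Tnf was lost without CD8+ replicate 1 (-1.38, adjusted p = 0.0526) and Il13 without CD8+ replicate 2 (-3.60, adjusted p = 0.0794). In STAT3-/- cells Il21 alone held without each library, and Il2 and Il4 held without CD4+ replicate 2, while the adjusted p of Il2 was 0.103 without CD4+ replicate 1, 0.0871 without CD8+ replicate 1 and 0.151 without CD8+ replicate 2. In STAT3-/-PD-1-/- cells Il21 held without CD4+ replicate 1, CD4+ replicate 2 or CD8+ replicate 1, and no member held without CD8+ replicate 2, where Il21 differed by -2.57 (adjusted p = 0.0592).

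**Figure D3:**
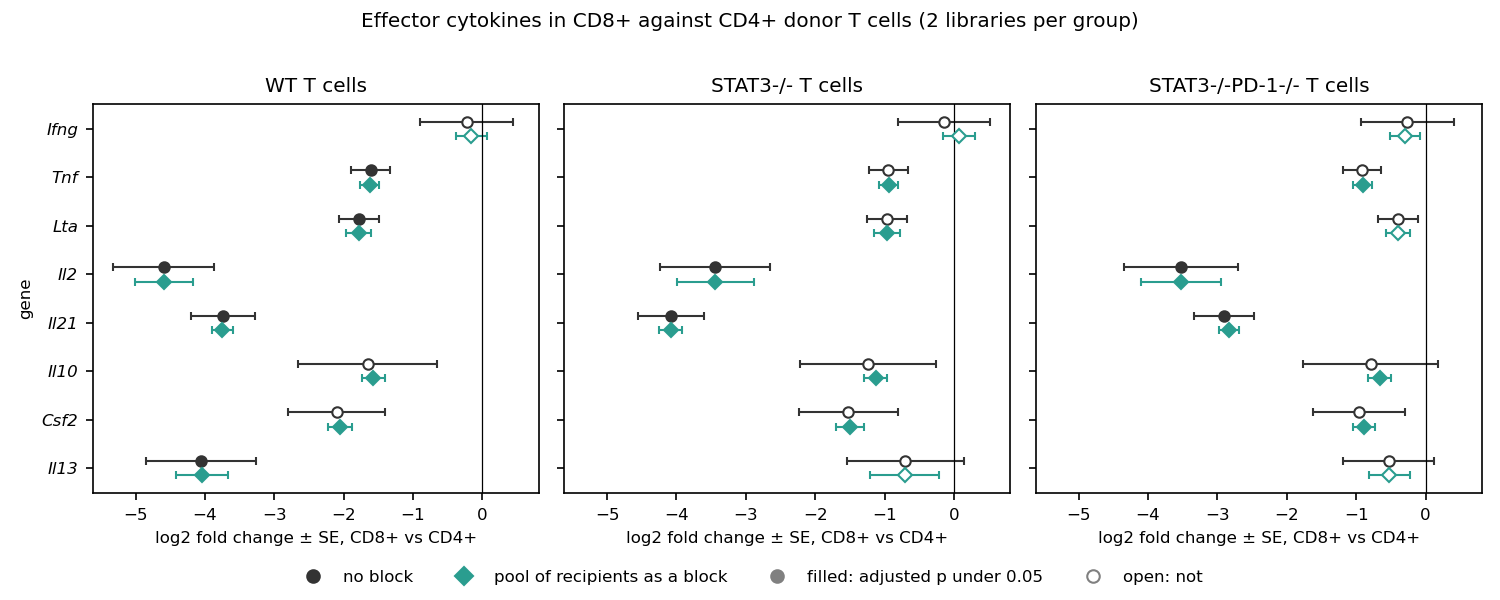
Log2 difference of CD8+ from CD4+ T cells in each genotype for the 8 members other than Il3 and Il4, as points with SE bars. Black points are from the fit without a block and teal points from the fit with the pool of recipients as a block, and filled points have an adjusted p under 0.05. Il21 lies between -4.08 and -2.83 in all fits, and Ifng lies between -0.30 and 0.07.

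The 2 replicates of a group differed for some members much more than for others. Ifng was higher in replicate 1 in 6 of 6 groups, by 1.38 to 3.58 times, Csf2 in 6 of 6 by 1.24 to 3.42 times, and Il10 in 6 of 6 by 2.28 to 5.53 times. Tnf was higher in replicate 1 in 3 of 6 groups and Lta in 2 of 6. All 5 AP-1 family genes of the transcription factor list were also higher in replicate 1 in 6 of 6 groups, by 3.06 to 7.58 times for Fosb, 2.35 to 3.23 for Fos, 1.7 to 4.72 for Junb, 1.38 to 2.66 for Jun and 1.04 to 1.5 for Batf, a tally made after the values were seen. Junb, which was chosen as a gene with a high level per kb, was at 1071 and 332 CPM in WT, 1031 and 233 CPM in STAT3-/-, and 370 and 191 CPM in STAT3-/-PD-1-/- CD4+ T cells, and at 797 and 169, 655 and 141, and 223 and 131 CPM in the CD8+ libraries, with replicate 1 the higher in each pair. Fosb, named after its values were seen, was at 472 and 103, 452 and 92.6, and 107 and 34.9 CPM in the CD4+ libraries. The labels name no batch for these numbers, although the sample numbers in the titles form separate runs for replicate 1 and replicate 2. The source of the difference was not tested.

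Genes around the cytokines were described by lists. The 20 called genes that the rule for naming took from them had 43 calls in the 6 genotype comparisons, of which 41 held under every other setting of the fit and 3 held without each of the 4 libraries compared, namely Maf in STAT3-/-PD-1-/- against WT in both subsets and Iigp1 in STAT3-/- against WT CD4+ T cells. Of 21 other T cell cytokines, 16 were tested in CD4+ and 15 in CD8+ T cells. None was called between STAT3-/- and WT in either subset. Between STAT3-/-PD-1-/- and WT, 1 was higher and 7 were lower in CD4+ T cells (median log2 difference -0.87), and 1 was higher and 4 were lower in CD8+ T cells (median -0.75), where 12.9% and 17.2% of all genes were called and the medians of all genes were -0.01 and -0.001. Csf1, the macrophage growth factor, fell by 1.41 in the CD4+ comparison (SE 0.24, adjusted p = 0.0118), and Tnfsf10, which encodes the death ligand TRAIL, fell by 1.29 in CD8+ T cells (SE 0.19, adjusted p = 0.00802). Mif, an inflammatory cytokine that most cells store, rose by 1.15 over STAT3-/- in CD4+ T cells (SE 0.22, adjusted p = 0.0228). Il16 fell by 1.01 from STAT3-/- in CD8+ T cells (SE 0.21, adjusted p = 0.0211). Ltb and Tgfb1 had the highest levels per kb of this list, at 101 and 78.5 CPM per kb. Il17a, named after its values were seen, was at 2.32 and 1.52 CPM in WT CD4+ T cells and at most 0.0866 CPM in the 4 mutant CD4+ libraries.

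Of 18 receptor genes for the member cytokines, 14 were tested. Between STAT3-/- and WT none was called in either subset. Between STAT3-/-PD-1-/- and WT, 2 were higher and 4 lower in CD4+ T cells, and 2 were higher and 4 lower in CD8+ T cells, beside 12.9% and 17.2% of all genes called. Il2ra, the high-affinity chain for IL-2, was at 166 and 191 CPM in STAT3-/- and 350 and 277 CPM in STAT3-/-PD-1-/- CD4+ T cells, a log2 difference of 0.83 (SE 0.17, adjusted p = 0.0263), beside 270 and 292 CPM in WT. Il4ra, the receptor chain of IL-4 and IL-13, fell from WT by 0.92 in CD4+ T cells without STAT3 and PD-1 (SE 0.19, adjusted p = 0.0236). The CD8+ comparisons gave a lower Il21r, which fell from WT by 0.80 (SE 0.17, adjusted p = 0.0231), and a lower Il10rb, which fell from STAT3-/- by 0.76 (SE 0.21, adjusted p = 0.0464). Il2rb and Il2rg had the highest levels, at 632 and 448 CPM per kb. Csf2rb, a GM-CSF and IL-3 receptor chain named after its values were seen, was at 0.0455 and 0.762 CPM in WT, 0.188 and 0.711 CPM in STAT3-/-, and 5.54 and 5.12 CPM in STAT3-/-PD-1-/- CD4+ T cells, a log2 difference from STAT3-/- of 3.55 (SE 0.80, adjusted p = 0.0336). Among the CD8+ libraries Csf2rb was at 0.0890 and 0.559, 1.30 and 0.981, and 5.13 and 6.00 CPM in the same order. Csf2rb2 is a near-identical copy of it, so the split of reads between them is uncertain.

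Of 28 transcription factor genes, all were tested. Between STAT3-/-PD-1-/- and WT, 1 was higher and 6 were lower in CD4+ T cells, and 7 were lower in CD8+ T cells, beside 5.65% and 8.21% of all genes called lower. Maf was at 381 and 413 CPM in WT, 333 and 332 CPM in STAT3-/-, and 132 and 91.8 CPM in STAT3-/-PD-1-/- CD4+ T cells (log2 difference from WT -1.80, SE 0.19, adjusted p = 0.00395). Among the CD8+ libraries Maf was at 53.1 and 41.3, 36.1 and 33.0, and 10.9 and 8.16 CPM, a log2 difference from WT of -2.30 (SE 0.19, adjusted p = 0.00226). Both Maf calls against WT held under 4 of 4 other settings and without any 1 of the 4 libraries compared. Ahr, the aryl hydrocarbon receptor, fell by 1.59 from WT in CD4+ T cells with both deletions (SE 0.18, adjusted p = 0.00446), and Eomes rose by 1.40 (SE 0.26, adjusted p = 0.0158). Ikzf3, which encodes Aiolos, was at 242 and 293 CPM in WT, 503 and 655 CPM in STAT3-/-, and 331 and 201.0 CPM in STAT3-/-PD-1-/- CD4+ T cells. Ikzf3 fell between STAT3-/- and STAT3-/-PD-1-/- cells by 1.11 (SE 0.26, adjusted p = 0.0372), whereas the latter differed from WT by 0.01 (SE 0.26, adjusted p = 0.987). Ikzf1, which encodes Ikaros, was at 926 to 1428 CPM over the 12 libraries.

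Of 10 regulators of cytokine mRNA decay, 1 was called in the 6 genotype comparisons. Khsrp, which encodes a protein that binds AU-rich elements, rose by 0.57 in STAT3-/-PD-1-/- over WT CD8+ T cells (SE 0.14, adjusted p = 0.0342), a comparison in which 17.2% of all genes were called, so that 1 of 10 is no more than the general rate. Zfp36, which encodes tristetraprolin, was at 417 and 219 CPM in WT, 378 and 173 CPM in STAT3-/-, and 212 and 68.3 CPM in STAT3-/-PD-1-/- CD4+ T cells, a log2 difference from WT of -1.16 for the last (SE 0.57, adjusted p = 0.228). Its relative Zfp36l2 had the highest level of the list, at 839 to 1918 CPM.

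Of 19 interferon γ response genes, 18 were tested. In STAT3-/- CD4+ T cells 1 was higher than in WT, and 17 of 18 log2 differences were above 0, with a median of 0.50, beside 0.334% of all genes called and a median of all genes of 0.01. The called gene was Iigp1, an immunity-related GTPase, at 4.23 and 8.77 CPM in WT, 49.3 and 63.0 CPM in STAT3-/-, and 32.5 and 17.8 CPM in STAT3-/-PD-1-/- CD4+ T cells (log2 difference of STAT3-/- from WT 3.11, SE 0.41, adjusted p = 0.0413). The call held with DESeq2, without the filter and with the block, and was lost with only the libraries compared in the fit. With both deletions 3 were higher and 1 was lower than in WT, with a median of 0.12, beside 12.9% of all genes called and a median of all genes of -0.01. Against STAT3-/- CD4+ T cells, 1 of 18 was lower with both deletions, beside 5.03% of all genes called lower. In that comparison 14 log2 differences were below 0 and 4 above, with a median of -0.62, beside -0.01 for all genes. In CD8+ T cells none was called between STAT3-/- and WT (median 0.32), and 2 were lower in STAT3-/-PD-1-/- than in WT and 4 lower than in STAT3-/- cells (medians -0.33 and -0.71). Of all genes, 17.2% and 16.8% were called in either direction in these 2 comparisons, and 8.21% and 8.05% were called lower. The count of this list against WT lies near the share called lower. The count against STAT3-/- cells lies above it, with no test of the list. Among the guanylate-binding proteins of this list, Gbp6 fell from STAT3-/- by 1.53 (SE 0.23, adjusted p = 0.00965), Gbp2 fell from STAT3-/- by 0.92 (SE 0.17, adjusted p = 0.0154) and Gbp4 fell from WT by 1.19 (SE 0.23, adjusted p = 0.0179), each in the STAT3-/-PD-1-/- CD8+ libraries. The immunoproteasome genes Psmb8 and Psmb9 had the highest levels, at 364 and 194 CPM per kb. Ifng itself was called in none of these comparisons.

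**Figure D4:**
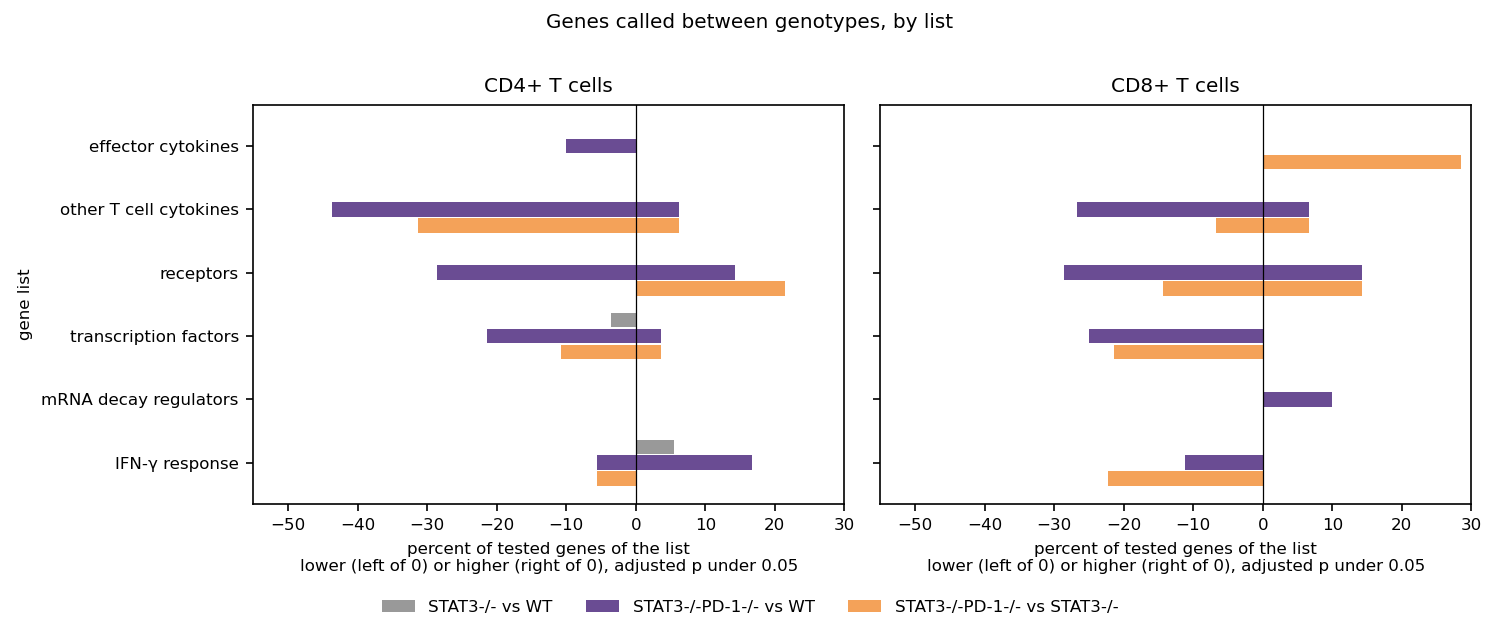
Share of the tested genes of each list that were called lower (left of 0) or higher (right of 0) in each of the 6 genotype comparisons, in percent. Calls are few for STAT3-/- against WT in either subset, and the transcription factor list has 6 and 7 of 28 genes lower in STAT3-/-PD-1-/- than in WT CD4+ and CD8+ T cells, beside 5.65% and 8.21% of all genes.

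Genes whose log2 levels followed a member most closely were listed over the 12 libraries, by Pearson r among 8597 genes, for members with a mean of at least 1 CPM. These values describe libraries that share subset, genotype and replicate number and carry no test. Ifng was closest to Rad17 (0.951) and Rgs1 (0.95), and for Rgs1 the r within the 6 CD4+ and the 6 CD8+ libraries was 0.957 and 0.966. Il10 was closest to Mex3c (0.934), Fam110a (0.923) and Trib1 (0.914). Csf2 was closest to Mbtps2 (0.906), Ubxn2a (0.9) and Ppfibp1 (0.892), and Il13 to Ppfibp1 (0.878), Slc39a4 (0.876) and Csf2 (0.864). Il2 was closest to another member, Tnf (0.956), then to Ifitm3 (0.951) and Cd82 (0.95), for which the r within the CD8+ libraries was 0.646, 0.511 and -0.037, so that these values too follow the difference between subsets in part. Tnf was closest to Ifitm3 (0.935), Ifitm2 (0.935) and Il1rl2 (0.934). Il21 was closest to Ifih1 (0.982), Pdcd1lg2 (0.97) and Tnfrsf4 (0.964), where the r of Pdcd1lg2 was 0.131 within the CD4+ libraries and 0.875 within the CD8+ libraries, so that the value over all 12 follows the difference between subsets. Lta was closest to Chd1 (0.936), Mvp (0.931) and Furin (0.92).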

How the data were processed

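The authors aligned RNA-seq reads of sorted liver donor T cells to mm10 with STAR, counted them per RefSeq gene with HTSeq-count and normalized with TMM in edgeR. Whether counting used strand is not given in the sources used here. The deposited table analyzed here holds raw counts per gene, 21676125 to 24551477 per library, and 0 of its columns lacked a sample. The authors' deposited RPKM table was not used. Counts were fitted with the quasi-likelihood test of edgeR 4.0.16 (R 4.3.3), TMM and filterByExpr (minimum count 10, minimum total 15), with 1 fit for the 6 CD4+, 1 for the 6 CD8+ and 1 for all 12 libraries, and p-values were adjusted over all genes fitted by the method of Benjamini and Hochberg (threshold 0.05). Levels are CPM scaled by TMM, and plots add 0.5 CPM. Scripts were tested on simulated data.

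Same-numbered libraries deviated together (correlations of deviations 0.725, 0.352 and 0.213 between CD4+ groups, and 0.629, 0.625 and 0.75 between the CD4+ and CD8+ libraries of a genotype, which came from the same liver tissue), so the number, or the pool of recipients, was used as a block beside the fits without one. Alternatives were DESeq2 1.42.0, no filter, only the libraries compared, and leaving out each library in turn. The members and gene lists were chosen with earlier results of these data known. From each list the text names up to 4 called genes with the largest change, among genes averaging 3 or more log2 CPM, plus the 2 highest per kb. Other genes named are said to be so. Some genes of these rules are not reported here. Motifs were counted in RefSeq promoters (GRCm38.p6) and in 3′ ends of the annotation (GRCm38). Counting intervals, at 95%, cover counting error only. Sequences of proteins were not used here. The growth protocol given with the labels describes another cell type and was not used.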

Additional observations from a re-analysis of the deposited data

How the results depend on the processing

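Except for the values given here, the numbers of genes and of members called stayed within 1.5 times those of the fits without a block, and the members kept the sign of their difference. With DESeq2 and its size factors, the members called became 3 for CD4+ STAT3-/- against WT and 2 for CD8+ STAT3-/-PD-1-/- against WT. The genes called then became 271 for CD4+ STAT3-/- against WT, 2098 for CD4+ STAT3-/-PD-1-/- against STAT3-/-, 206 for CD8+ STAT3-/- against WT, 5 for STAT3-/- against WT between subsets and 75 for STAT3-/-PD-1-/- against WT between subsets. Signs turned at log2 differences of 0 for Lta in CD4+ STAT3-/-PD-1-/- against STAT3-/-. Without the filter on low counts, the members called became 2 for CD4+ STAT3-/- against WT and 3 for CD8+ STAT3-/-PD-1-/- against WT. The genes called then became 165 for CD4+ STAT3-/- against WT, 66 for CD8+ STAT3-/- against WT and 50 for STAT3-/-PD-1-/- against WT between subsets. Signs turned at log2 differences of -0.01 for Lta in CD4+ STAT3-/-PD-1-/- against STAT3-/-. With only the libraries compared in the fit, the members called became 2 for CD4+ STAT3-/-PD-1-/- against WT, 2 for CD8+ STAT3-/-PD-1-/- against WT, 2 for STAT3-/- CD8+ against CD4+ and 0 for STAT3-/-PD-1-/- CD8+ against CD4+. The genes called then became 1 for CD4+ STAT3-/- against WT, 0 for CD8+ STAT3-/- against WT, 818 for WT CD8+ against CD4+, 523 for STAT3-/- CD8+ against CD4+, 201 for STAT3-/-PD-1-/- CD8+ against CD4+ and 2 for STAT3-/-PD-1-/- against WT between subsets. Il2 in STAT3-/-PD-1-/- CD4+ T cells, and Csf2 and Il21 in STAT3-/-PD-1-/- against STAT3-/- CD8+ T cells, were called with DESeq2, without the filter and with only the libraries compared. The cause of these changes was not tested, beside the number of genes or libraries that each setting removes.

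With the replicate number as a block, the members called became 4 for CD4+ STAT3-/- against WT, 2 for CD4+ STAT3-/-PD-1-/- against WT, 3 for CD4+ STAT3-/-PD-1-/- against STAT3-/-, 2 for CD8+ STAT3-/-PD-1-/- against WT and 8 for STAT3-/- CD8+ against CD4+. The genes called then became 303 for CD4+ STAT3-/- against WT, 3104 for CD4+ STAT3-/-PD-1-/- against WT, 3105 for CD4+ STAT3-/-PD-1-/- against STAT3-/-, 2014 for WT CD8+ against CD4+, 1909 for STAT3-/- CD8+ against CD4+, 939 for STAT3-/-PD-1-/- CD8+ against CD4+ and 28 for STAT3-/-PD-1-/- against WT between subsets. Signs turned at log2 differences of 0 for Il10 in CD4+ STAT3-/-PD-1-/- against WT, 0.03 for Ifng in CD4+ STAT3-/-PD-1-/- against STAT3-/-, 0.05 for Ifng in STAT3-/- CD8+ against CD4+ and -0.02 for Lta in CD4+ STAT3-/-PD-1-/- against STAT3-/-. The deviations of libraries with the same number from their group means correlated at 0.733, 0.184 and 0.046 between the 3 pairs of CD8+ groups. A pairing of the CD8+ libraries by number is therefore not established. In CD8+ T cells the block called Csf2 (1.22, adjusted p = 0.0284) and Il10 (0.91, adjusted p = 0.027) in STAT3-/-PD-1-/- against WT. With the pool of recipients as a block, the members called became 8 for STAT3-/- CD8+ against CD4+, 6 for STAT3-/-PD-1-/- CD8+ against CD4+ and 1 for STAT3-/-PD-1-/- against WT between subsets. The genes called then became 2991 for WT CD8+ against CD4+, 3077 for STAT3-/- CD8+ against CD4+, 1774 for STAT3-/-PD-1-/- CD8+ against CD4+ and 84 for STAT3-/-PD-1-/- against WT between subsets. Signs turned at log2 differences of 0.07 for Ifng in STAT3-/- CD8+ against CD4+. In WT CD8+ against CD4+, 9 members were called with either block, Csf2 and Il10 beside the 7 called without one. The blocks changed no other call of a member.

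Leaving out each library of the groups compared in turn, which leaves a lone library assumed to vary like the others, gave genes called of 9 to 49 for CD4+ STAT3-/- against WT, 62 to 676 for CD4+ STAT3-/-PD-1-/- against WT, 0 to 1185 for CD4+ STAT3-/-PD-1-/- against STAT3-/-, 0 to 2 for CD8+ STAT3-/- against WT, 111 to 1107 for CD8+ STAT3-/-PD-1-/- against WT, 2 to 1194 for CD8+ STAT3-/-PD-1-/- against STAT3-/-, 611 to 819 for WT CD8+ against CD4+, 428 to 775 for STAT3-/- CD8+ against CD4+ and 163 to 200 for STAT3-/-PD-1-/- CD8+ against CD4+. The members called were 0 for CD4+ STAT3-/-PD-1-/- against WT, 0 to 2 for CD4+ STAT3-/-PD-1-/- against STAT3-/-, 0 to 3 for CD8+ STAT3-/-PD-1-/- against STAT3-/-, 1 to 3 for STAT3-/- CD8+ against CD4+ and 0 to 1 for STAT3-/-PD-1-/- CD8+ against CD4+. Signs turned for the log2 differences of Ifng, with -1.5 to 0.32 for CD4+ STAT3-/- against WT, -1.2 to 0.19 for CD4+ STAT3-/-PD-1-/- against WT, -0.88 to 1.1 for CD4+ STAT3-/-PD-1-/- against STAT3-/-, -0.67 to 0.09 for CD8+ STAT3-/- against WT, -1.38 to 0.11 for CD8+ STAT3-/-PD-1-/- against WT, -1.14 to 0.35 for CD8+ STAT3-/-PD-1-/- against STAT3-/-, -0.66 to 0.38 for WT CD8+ against CD4+, -0.79 to 1.03 for STAT3-/- CD8+ against CD4+ and -1.18 to 0.54 for STAT3-/-PD-1-/- CD8+ against CD4+. For Il10 they were -1.29 to 1.57 for CD4+ STAT3-/- against WT, -1.15 to 1.16 for CD4+ STAT3-/-PD-1-/- against WT, -1.56 to 1.28 for CD4+ STAT3-/-PD-1-/- against STAT3-/-, -0.56 to 1.69 for CD8+ STAT3-/- against WT, -0.69 to 1.41 for CD8+ STAT3-/-PD-1-/- against STAT3-/-, -2.62 to 0.45 for STAT3-/- CD8+ against CD4+ and -1.49 to 0.36 for STAT3-/-PD-1-/- CD8+ against CD4+. For Csf2 they were -0.7 to 0.72 for CD4+ STAT3-/-PD-1-/- against WT. For Il21 they were -0.58 to 0.72 for CD4+ STAT3-/-PD-1-/- against WT and -0.27 to 1.03 for CD4+ STAT3-/-PD-1-/- against STAT3-/-. For Tnf they were -0.03 to 0.7 for CD4+ STAT3-/-PD-1-/- against STAT3-/- and -0.25 to 0.38 for CD8+ STAT3-/-PD-1-/- against WT. For Il2 they were -0.71 to 0.52 for CD4+ STAT3-/-PD-1-/- against STAT3-/-. For Il4 they were -1.42 to 0.13 for CD4+ STAT3-/-PD-1-/- against STAT3-/-. For Lta they were -0.38 to 0.31 for CD4+ STAT3-/-PD-1-/- against STAT3-/-. For Il13 they were -1.16 to 1.41 for CD8+ STAT3-/- against WT and -2.48 to 0.7 for STAT3-/- CD8+ against CD4+.

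Each group held 2 libraries, which fixes neither the spread of a group nor which of 2 libraries is typical, and each library combined 3 recipients, so p-values measure the spread between pools. Il2, Il3, Il4 and Il13 had few counts in CD8+ T cells, where counting error limits what can be seen. The replicates differed by more than counting noise (chi-square per degree of freedom of 28.2 to 79).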
